A study of Homo sapiens with 12 samples.

Results

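The cell's protein-degrading machine, the 26S proteasome, has a barrel-shaped core in which 3 catalytic subunits cut proteins into peptides. Its standard catalytic subunits are encoded by PSMB5, PSMB6 and PSMB7, and in the immunoproteasome they are replaced by PSMB8, PSMB9 and PSMB10, respectively, which favour peptides that fit MHC class I molecules. PSME1 and PSME2 encode the alpha and beta subunits of PA28, an activator ring that caps the core in the cytosol, and PSME3 encodes PA28 gamma, a nuclear relative of that ring. The inducible subunits and PSME1 and PSME2 are known as interferon-gamma targets, whereas resting epithelial cells mostly carry the standard subunits. The levels of these 9 genes, chosen by their gene names from the 58735 genes of the count table, are described here in lung cancer cells with and without the transcription factor GFI1.

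All groups were A549, an established human lung adenocarcinoma line, and each of the 4 groups held 3 libraries. Attached control cells and attached GFI1-expressing cells were collected from adherent cultures, and floating control cells and floating GFI1-expressing cells after 48 hours of forced suspension. GFI1 was introduced with a lentivirus from the human PGK promoter together with a GFP marker, and GFP-positive cells were sorted for RNA-Seq, so GFI1 is expressed here from a foreign promoter in a population of transduced cells. Whether controls were transduced with a vector lacking GFI1 was not given in the labels. The study's methods mention A549 cells with an empty vector for its animal assays and sorted GFP-positive cells for RNA-Seq, without naming the vector of the RNA-Seq controls. If they had none, an effect of GFI1 and one of transduction cannot be told apart. The labels also did not say whether the 3 libraries of a group came from separate cultures, so p values measure only the spread between these libraries.

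GFI1 itself checked the labels. It was between 0.238 and 0.711 CPM (counts scaled to library size by TMM) in the 6 control libraries and in the GFI1 libraries it was at 290, 294 and 286 CPM attached and at 545, 706 and 430 CPM floating. GFI1 thus rose on suspension in GFI1 cells (log2 fold change 0.95 ± 0.10, adjusted p = 2.38e-08), and its part in the other effects of suspension in these cells, and in the GFI1 effect of floating cells, was not tested. Total counts ran from 17014188 to 20748677 per library. All 8 markers used for A549 cells reached 10 counts in a library, though EPCAM had as few as 6 in attached GFI1 cells. Their summed level was lower with GFI1, at 7880 to 8000 CPM against 16800 to 17800 CPM in attached cells and at 5930 to 6800 CPM against 14400 to 14800 CPM in floating cells. The fall was uneven. In attached cells mean KRT8 went from 5770 to 1850 CPM with GFI1 and AKR1B10 from 3080 to 481 CPM. NQO1 went from 1900 to 1730 CPM and TXNRD1 from 1520 to 1450 CPM. Blood cells carry inducible subunits without stimulation, and of 8 blood cell markers 3 reached 10 counts in a library, with a summed level of 5.63 to 7.11 CPM in attached GFI1 cells and of 7.87 to 10.2 CPM in attached controls. The same sum was 7.51 to 8.49 CPM in floating GFI1 cells and 13.1 to 16.8 CPM in floating controls. CD3E was at 0 counts in every library, and PTPRC, the leukocyte common antigen, had at most 1 count. Of 4 endothelial markers 3 reached 10 counts, and their summed level was 0.109 to 0.344 CPM without and 3.55 to 5.21 CPM with GFI1 in attached cells, and 0.283 to 0.662 CPM without and 4.96 to 5.52 CPM with GFI1 in floating cells. Of 5 fibroblast markers 2 reached 10 counts, DCN was at 0 throughout, and their summed level was 8.17 to 9.24 CPM in attached GFI1 cells and 12.3 to 14.1 CPM in attached controls, and 5.52 to 7.44 CPM and 8.5 to 10.2 CPM in floating GFI1 and control cells. The 2 fibroblast markers that reached 10 counts, COL1A1 and PDGFRB, moved in opposite directions with GFI1, which their sum hides. In floating cells mean COL1A1 went from 9.23 to 3.47 CPM with GFI1 and PDGFRB from 0.236 to 2.58 CPM. In attached cells COL1A1 was also lower with GFI1, and mean PDGFRB went from 0.133 to 2.22 CPM. The part of these marker shifts in the values that follow was not tested.

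The sequences at the start sites are shown first, because the interferon-inducible members are usually described by the elements they share there. RefSeq windows of GRCh38.p14 running from 250 bases before to 50 bases after an annotated start were found for 7 of the 9 genes, with 9 windows in all. PSMB6 and PSMB7 had no entry. The core of the interferon-stimulated response element was searched as GAAANNGAA on both strands, a pattern that 8.11% of all 35116 windows held. It was present in the windows of PSMB10, PSME1 and PSME2 and in the downstream of the 2 PSMB8 windows, with the same 9 bases, read on 1 strand or the other, in each. For these 4 genes, the 70 bases before and 20 bases after the start are given 5′ to 3′ on the strand of the gene, with the match in capitals. They lie at chr16:67936831-67936920 (minus strand) for PSMB10, at chr6:32844028-32844117 (minus strand) for PSMB8, at chr14:24136124-24136213 (plus strand) for PSME1 and at chr14:24146591-24146680 (minus strand) for PSME2.
PSMB10: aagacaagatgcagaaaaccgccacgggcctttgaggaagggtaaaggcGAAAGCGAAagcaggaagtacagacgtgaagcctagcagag
PSMB8: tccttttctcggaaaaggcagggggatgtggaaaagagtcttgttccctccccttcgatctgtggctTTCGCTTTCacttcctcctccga
PSME1: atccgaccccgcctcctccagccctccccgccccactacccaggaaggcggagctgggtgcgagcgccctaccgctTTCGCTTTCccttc
PSME2: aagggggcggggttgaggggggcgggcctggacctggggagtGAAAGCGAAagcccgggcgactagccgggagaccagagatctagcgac
The match began 21 bases before the start of PSMB10, 3 bases before that of PSMB8 and 28 bases before that of PSME2, and at position 7 after the start of PSME1.

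PSMB9 is the exception among the inducible subunits, and its start site is shown for contrast. It lies head to head with TAP1, which encodes a chain of the peptide transporter into the endoplasmic reticulum. TAP1 has more than 1 RefSeq start, and its upstream start is 488 bases from that of PSMB9 on chromosome 6. The PSMB9 window held no match, and the same 90 bases around its start are at chr6:32854122-32854211 (plus strand). The window of that upstream TAP1 start held a pair of overlapping matches, given as 90 bases at chr6:32853785-32853874 (minus strand), which lie 355 and 361 bases before the start of PSMB9. The downstream TAP1 window held no match.
PSMB9: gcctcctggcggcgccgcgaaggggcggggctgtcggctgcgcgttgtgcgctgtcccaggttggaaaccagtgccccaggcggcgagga
TAP1: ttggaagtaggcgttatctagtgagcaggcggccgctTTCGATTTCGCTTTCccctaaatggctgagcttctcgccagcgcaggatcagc
The gamma-activated sequence TTCNNNGAA, which 7.66% of all windows held, was present in the downstream PSMB8 window (at −65 bases), in 1 of the 2 PSMB5 windows (at −158 and −15 bases) and in the PSME3 window (at −230 bases). The element TGACNNNGC bound by NRF1 (NFE2L1), the factor that raises standard proteasome genes when proteasome activity is short, was held by 13.3% of all windows and by those of PSMB9, PSME1 and PSME2. The core AATCNNNGC of the GFI1 motif was held by 11.0% of all windows and by 0 of the 9 windows, which covered 7 of the 9 genes. PSMB6 and PSMB7 could not be searched for any of these elements. A match is a string of letters, and no binding was measured here.

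With GFI1, the 3 inducible catalytic subunits and both subunits of cytosolic PA28 rose, and the 3 standard catalytic subunits and PSME3 fell, in attached and in floating cells alike. In attached cells PSMB10 was 7.54-fold, PSMB9 5.55-fold and PSMB8 4.49-fold higher, and PSME1 and PSME2 were 1.92-fold and 1.67-fold higher. Thus 5 of the 9 genes were called higher and 4 lower at an adjusted p of 0.05 or less, where 29.5% of the 17829 tested genes were called higher and 32.8% lower. In floating cells the same division of 5 higher and 4 lower was found, where 29.3% of all tested genes were called higher and 31.1% lower. For all 9 genes, the control and GFI1 libraries did not overlap in CPM in either condition, but the share of all tested genes without overlap was not counted. As the RNA was extracted from cells in bulk, a change in all cells and a change in the share of cells that carry a transcript cannot be told apart.

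**Figure D1:**
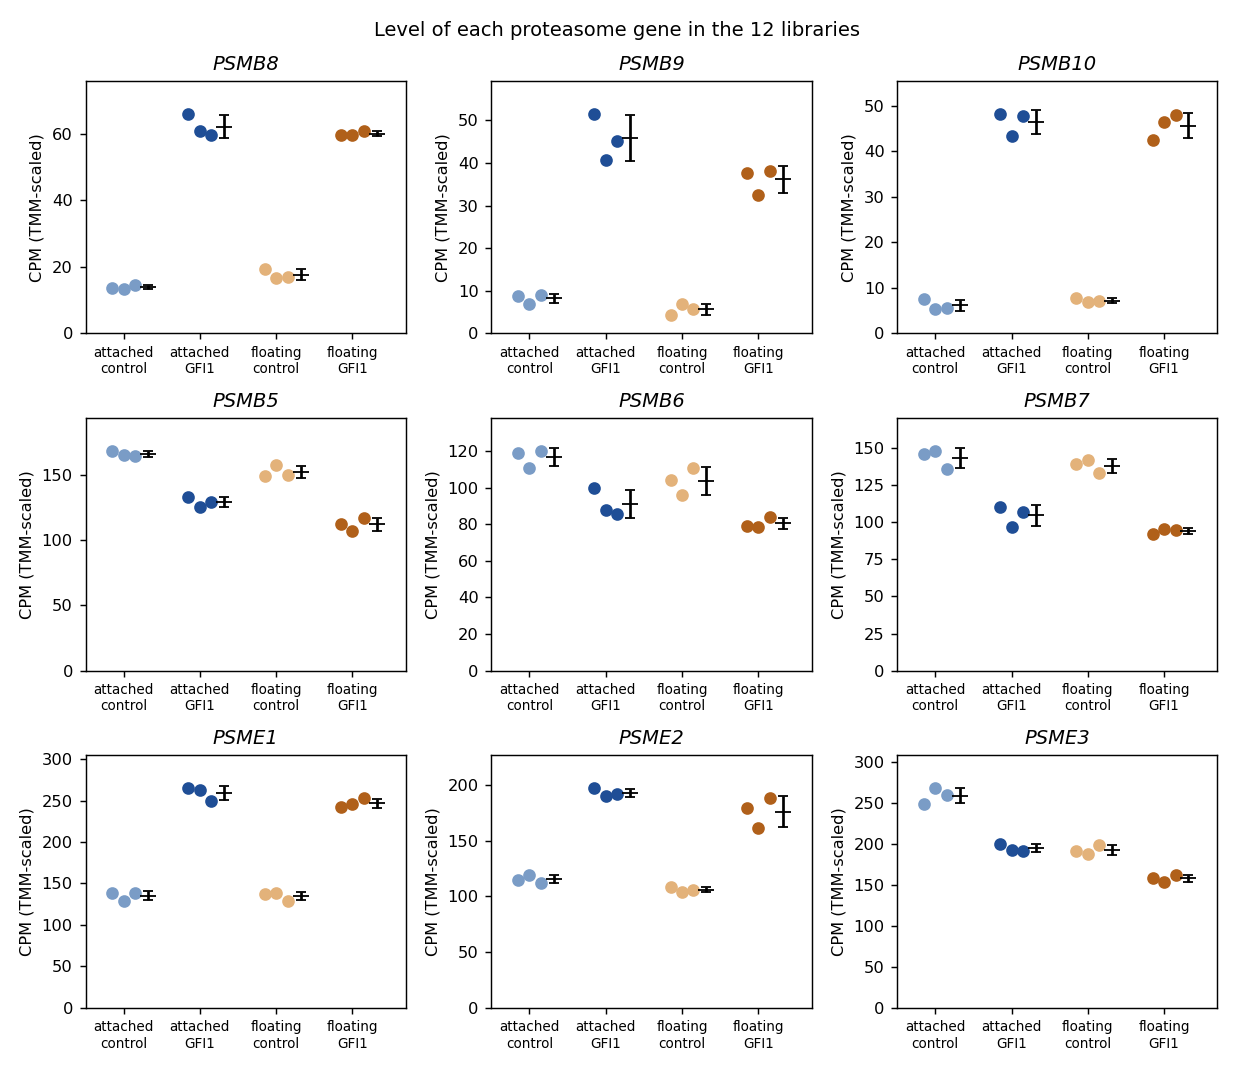
TMM-scaled CPM of the 9 genes in each library, with 1 point per library, and the mean and SD (n = 3) of each group to the right of its points. Every panel starts at 0. The GFI1 libraries lie above the controls for the inducible subunits PSMB8, PSMB9 and PSMB10 and for PSME1 and PSME2, and below them for PSMB5, PSMB6, PSMB7 and PSME3.

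PSMB10, the inducible trypsin-like subunit, had the largest fold change of the 9 genes in attached cells. It was at 7.62, 5.32 and 5.57 CPM in the attached control libraries and at 48.2, 43.4 and 47.7 CPM in the attached GFI1 libraries, a log2 fold change of 2.91 ± 0.10 (SE, edgeR quasi-likelihood test, Benjamini-Hochberg adjusted p = 7.1e-19). In floating cells it was at 7.82, 6.8 and 7.08 CPM in control libraries and at 42.5, 46.4 and 47.9 CPM in GFI1 libraries, with a log2 fold change of 2.66 ± 0.10 (adjusted p = 3.32e-18). No library of either group came near the other, and raw counts were 97 to 128 in attached controls and 855 to 952 in attached GFI1 cells. In GENCODE v44, 39.4% of the exonic bases of PSMB10 (16:67934506-67936864, minus strand, gene ENSG00000205220) are shared on the same strand with the gene ENSG00000261884. That gene had 25 to 38 counts in attached controls and 100 to 129 in attached GFI1 cells, and how reads in shared bases were assigned was not stated.

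PSMB9, which takes the place of the caspase-like subunit, was at 8.69, 7.01 and 9.07 CPM in attached control and at 51.5, 40.8 and 45.2 CPM in attached GFI1 libraries (log2 fold change 2.47 ± 0.11, adjusted p = 5.65e-16). In floating cells the control libraries were at 4.33, 6.98 and 5.78 CPM and the GFI1 libraries at 37.6, 32.6 and 38.2 CPM (log2 fold change 2.67 ± 0.12, adjusted p = 7.91e-16). The lowest GFI1 library of either condition was thus well above the highest control library. PSMB9 (ENSG00000240065) is annotated at 6:32844136-32859851 on the plus strand, which reaches back over TAP1 to PSMB8, although its RefSeq start lies at 32854192.

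PSMB8, the inducible chymotrypsin-like subunit, had the highest counts of the inducible subunits. It was at 13.6, 13.4 and 14.5 CPM in attached control and at 65.9, 60.8 and 59.7 CPM in attached GFI1 libraries (log2 fold change 2.17 ± 0.07, adjusted p = 1.48e-19). In floating cells it was at 19.5, 16.6 and 16.9 CPM in control and at 59.5, 59.6 and 60.9 CPM in GFI1 libraries (log2 fold change 1.77 ± 0.07, adjusted p = 5.73e-18), a 3.40-fold difference. The GFI1 libraries of both conditions were at about the same level, while the floating controls were above the attached ones. PSMB8 (ENSG00000204264) lies at 6:32840717-32844679 on the minus strand, and 17.3% of its exonic bases are also exonic in genes on the opposite strand, PSMB8-AS1 and PSMB9. PSMB8-AS1, the antisense RNA, had 3 to 19 counts in attached controls and 53 to 96 in attached GFI1 cells (log2 fold change 2.89 ± 0.33, adjusted p = 2.78e-08), against 229 to 252 and 1169 to 1317 counts for PSMB8. Because the strand setting of the counting was not stated, reads in the shared bases cannot be told apart.

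The standard catalytic subunits moved the other way by a smaller amount. PSMB5, the chymotrypsin-like subunit, was at 168, 165 and 164 CPM in attached control and at 133, 125 and 129 CPM in attached GFI1 libraries, and at 149, 157 and 150 CPM and 112, 107 and 117 CPM in the floating groups. With GFI1 its log2 fold change was −0.36 ± 0.04 (adjusted p = 6.71e-08) for attached and −0.43 ± 0.04 (adjusted p = 3.49e-09) for floating cells. PSMB7, the trypsin-like subunit, was at 146, 148 and 136 CPM in attached control and at 110, 96.9 and 107 CPM in attached GFI1 libraries (log2 fold change −0.45 ± 0.05, adjusted p = 1.4e-08). The largest fall of the 3 was that of PSMB7 in floating cells, from 139, 142 and 133 CPM to 91.8, 95.5 and 94.5 CPM (log2 fold change −0.55 ± 0.05, adjusted p = 4.87e-10). PSMB6, the caspase-like subunit, was at 119, 111 and 120 CPM in attached control and at 99.8, 87.9 and 85.5 CPM in attached GFI1 libraries, with a log2 fold change of −0.36 ± 0.06 (adjusted p = 5.05e-06). In floating cells PSMB6 was at 104, 96.1 and 111 CPM without and at 79.3, 78.4 and 83.9 CPM with GFI1 (log2 fold change −0.36 ± 0.06, adjusted p = 6.87e-06). None of these 3 genes shared exonic bases with another gene in the annotation. When libraries were scaled by their size only, the median log2 fold change of all tested genes with GFI1 was 0.14 in place of −0.007 in attached cells and 0.14 in place of 0.011 in floating cells, and the 3 subunits were still called lower in both. The fold changes were smaller under that scaling, with −0.21 for PSMB5 and for PSMB6 in attached cells and −0.23 for PSMB6 in floating cells.

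The 3 PA28 genes divided into the cytosolic pair and the nuclear form. PSME1 was at 138, 129 and 139 CPM in attached control and at 265, 263 and 250 CPM in attached GFI1 libraries (log2 fold change 0.94 ± 0.04, adjusted p = 1.15e-15), and at 137, 138 and 129 CPM and 242, 246 and 253 CPM in the floating groups (log2 fold change 0.87 ± 0.04, adjusted p = 5.5e-15). PSME2, whose product assembles with that of PSME1, was at 115, 119 and 112 CPM in attached control and at 197, 190 and 192 CPM in attached GFI1 libraries (log2 fold change 0.74 ± 0.05, adjusted p = 8.62e-13). In floating cells PSME2 was at 108, 104 and 106 CPM without and at 179, 161 and 188 CPM with GFI1 (log2 fold change 0.73 ± 0.05, adjusted p = 1.58e-12). Both genes lie close together on chromosome 14, PSME1 at 14:24136163-24138967 on the plus strand and PSME2 at 14:24143362-24147570 on the minus strand. Of the exonic bases of PSME2, 6.03% are also exonic on the opposite strand, in RNF31, and the pseudogenes PSME2P2 and PSME2P6 had at most 9 counts and 1 count.

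PSME3 went with the standard subunits. It was at 249, 268 and 260 CPM in attached control and at 200, 193 and 191 CPM in attached GFI1 libraries (log2 fold change −0.41 ± 0.04, adjusted p = 4.09e-09). In floating cells it was at 191, 188 and 199 CPM in control and at 158, 154 and 162 CPM in GFI1 libraries (log2 fold change −0.28 ± 0.04, adjusted p = 2.37e-06). Scaled by library size only, the effects were −0.26 and −0.16 and still called. PSME3 was highest in attached controls, lowest in floating GFI1 cells, and at overlapping levels in attached GFI1 and floating control cells.

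**Figure D2:**
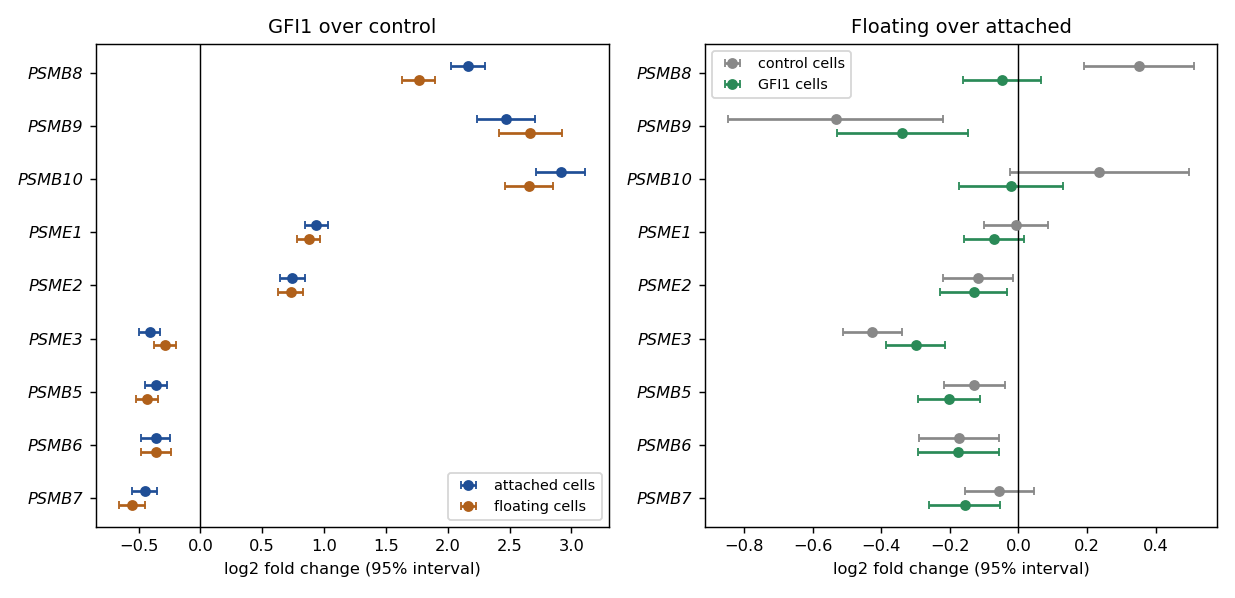
Log2 fold changes of the 9 genes from the edgeR fit, with 95% intervals, for GFI1 over control (left) and for floating over attached cells (right, on a narrower axis). PSMB8, PSMB9, PSMB10, PSME1 and PSME2 are above 0 with GFI1 in both conditions, and the suspension effects of PSMB8 differ between control and GFI1 cells.

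On suspension the fold changes of 8 of these genes were smaller than with GFI1, while that of PSME3 was of about the same size, and the inducible subunits did not move together. In control cells PSMB8 was the 1 gene of 9 called higher and 4 were called lower, where 19.6% of all tested genes were called higher and 20.5% lower. PSMB8 rose on suspension by 0.35 ± 0.08 on the log2 scale (adjusted p = 0.000651), whereas PSMB9 fell by 0.53 ± 0.15 (adjusted p = 0.0065). The summed blood cell markers were also higher in floating than in attached controls, as given above, mostly through CD14, and their part in the rise of PSMB8 was not tested. The floating control libraries of PSMB9 were all below the attached ones, but by a narrow gap, 6.98 CPM in the highest floating against 7.01 CPM in the lowest attached library. Without floating control replicate 1 the log2 fold change of PSMB9 was −0.37 (adjusted p = 0.0637). PSMB10 differed by 0.24 ± 0.13 (adjusted p = 0.146, 95% interval −0.02 to 0.50), and was called higher without attached control replicate 1 (0.41, adjusted p = 0.0129).

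Of the other genes in control cells, PSME3 fell most on suspension, by 0.43 ± 0.04 on the log2 scale (adjusted p = 8.12e-09). PSMB5 and PSMB6 fell by 0.13 ± 0.04 (adjusted p = 0.0185) and 0.17 ± 0.06 (adjusted p = 0.0159), and both calls were lost when 1 library was left out. PSMB5 lost it without attached control replicate 1 (−0.12, adjusted p = 0.0556), floating control replicate 1 (−0.12, adjusted p = 0.0711) or floating control replicate 3 (−0.12, adjusted p = 0.0649). PSMB6 lost it without attached control replicate 1 (−0.16, adjusted p = 0.0533), attached control replicate 3 (−0.15, adjusted p = 0.0692) or floating control replicate 2 (−0.12, adjusted p = 0.118). The intervals for PSMB7 (−0.16 to 0.04), PSME1 (−0.10 to 0.09) and PSME2 (−0.22 to −0.02, adjusted p = 0.0642) bound the changes that these libraries leave possible.

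In GFI1 cells 0 of the 9 genes were called higher on suspension and 6 were called lower, where 15.0% of all tested genes were called higher and 16.3% lower. All 9 estimates were below 0 in edgeR and in DESeq2, which called 0 higher and 5 lower. PSME3 fell by 0.30 ± 0.04 (adjusted p = 4.18e-06), PSMB5 by 0.20 ± 0.04 (adjusted p = 0.000745) and PSMB9 by 0.34 ± 0.09 (adjusted p = 0.006), on the log2 scale. PSMB6 fell by 0.17 ± 0.06 (adjusted p = 0.0223), PSMB7 by 0.16 ± 0.05 (adjusted p = 0.0182) and PSME2 by 0.13 ± 0.05 (adjusted p = 0.0367). Of these 6 calls only those of PSMB5 and PSME3 were kept whichever library was left out, and without attached GFI1 replicate 1 all the others were lost, with values of −0.25 for PSMB9 (adjusted p = 0.0662), −0.10 for PSMB6 (adjusted p = 0.218), −0.12 for PSMB7 (adjusted p = 0.125) and −0.11 for PSME2 (adjusted p = 0.142). PSMB6 was also lost without floating GFI1 replicate 1 (adjusted p = 0.0583), PSMB7 without that library or attached GFI1 replicate 3 (adjusted p = 0.0532 and 0.0919), and PSME2 without attached GFI1 replicate 2, attached GFI1 replicate 3 or floating GFI1 replicate 2 (adjusted p between 0.0722 and 0.182) and with upper quartile scaling, no low-count filter, only the 2 groups compared or DESeq2 (adjusted p between 0.0552 and 0.072). PSMB8, PSMB10 and PSME1 were not called, with intervals of −0.16 to 0.07, −0.17 to 0.13 and −0.16 to 0.02.

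The difference between the GFI1 effects in floating and attached cells was tested as an interaction, where 4.76% of all tested genes were called higher and 6.01% lower. Only PSMB8 of the 9 genes was called, with an interaction of −0.40 ± 0.10 on the log2 scale (adjusted p = 0.00624, 95% interval −0.60 to −0.20). That 1 call among 9 genes was near the share of all tested genes called in either direction. The GFI1 effect of PSMB8 was smaller in floating cells. The floating controls stood at 17.7 ± 1.59 CPM and the attached controls at 13.8 ± 0.55 CPM (SD, n = 3), while GFI1 cells were at 60.0 ± 0.80 CPM floating and 62.1 ± 3.27 CPM attached. The interactions of PSMB9 (0.19 ± 0.18, adjusted p = 0.575) and PSMB10 (−0.26 ± 0.15, adjusted p = 0.307) were not called, with intervals of −0.17 to 0.56 and −0.56 to 0.04. PSMB10 thus had the same sign as PSMB8 without passing the test, and an interaction as large as that of PSMB8 lay inside its interval.

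Each inducible subunit was next set against the standard subunit whose place it takes, as a ratio of CPM per kilobase of exonic length in the deposited table. PSMB8 stood at 0.0492 ± 0.0024 of PSMB5 in attached controls and at 0.283 ± 0.010 in attached GFI1 cells, and at 0.0687 ± 0.0077 and 0.315 ± 0.011 in the floating groups (SD, n = 3). PSMB9 stood at 0.0332 ± 0.0030 of PSMB6 in attached controls and at 0.237 ± 0.016 with GFI1, and at 0.0262 ± 0.0074 and 0.211 ± 0.014 in the floating groups. PSMB10 stood at 0.0415 ± 0.0081 of PSMB7 in attached controls and at 0.427 ± 0.005 with GFI1, and at 0.0507 ± 0.0041 and 0.468 ± 0.021 in the floating groups. So even with GFI1 the mRNA of each standard subunit remained above that of its inducible counterpart in every library, the highest single ratio being 0.489 for PSMB10 to PSMB7 in floating GFI1 replicate 3. The ratios were higher with GFI1 by 5.75-fold in attached and 4.59-fold in floating cells for PSMB8, by 7.14-fold and 8.05-fold for PSMB9, and by 10.3-fold and 9.23-fold for PSMB10. These folds do not depend on the length used, but the ratios do. With coding length in place of exonic length, the ratio in attached GFI1 cells was 0.458 for PSMB8, 0.549 for PSMB9 and 0.449 for PSMB10.

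**Figure D3:**
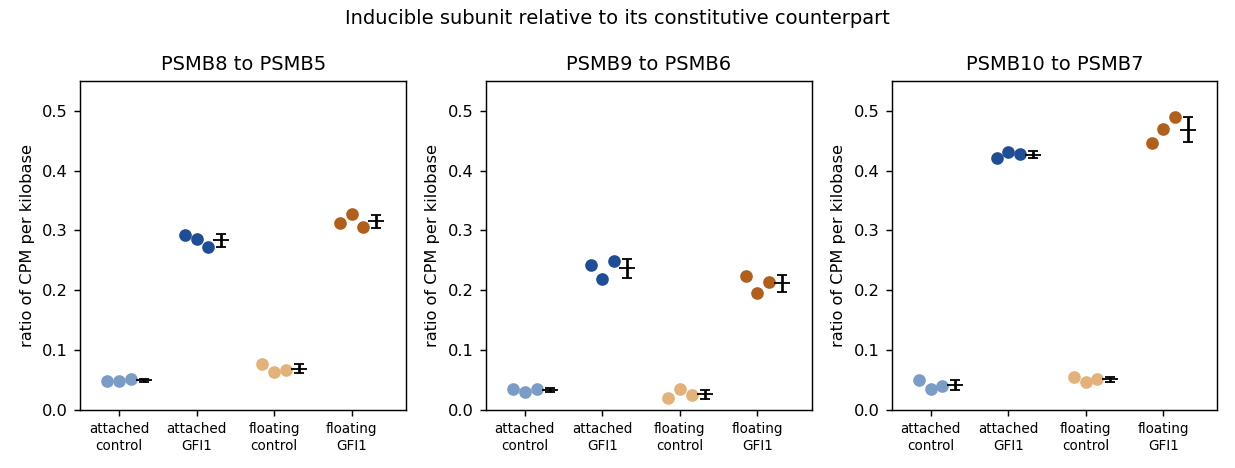
Ratio of CPM per kilobase of each inducible subunit to its standard counterpart in each library, with 1 point per library and the mean and SD (n = 3) of each group. Control libraries lie between 0.0197 and 0.0772 and GFI1 libraries between 0.196 and 0.489.

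In levels per kilobase of exonic length, the order of the 9 genes in attached controls ran from PSMB5 (94.0 ± 1.27 CPM per kilobase) through PSMB6 (80.7 ± 3.58), PSMB7 (80.2 ± 3.74), PSME1 (76.0 ± 3.16), PSME3 (50.3 ± 1.80) and PSME2 (32.2 ± 1.04) to PSMB8 (4.62 ± 0.18), PSMB10 (3.33 ± 0.68) and PSMB9 (2.69 ± 0.36), as mean ± SD of 3 libraries. PSMB6, PSMB7 and PSME1 lay within each other's spread, as did PSMB10 and PSMB9. In floating GFI1 cells PSME1 (139 ± 3.07 CPM per kilobase) was above PSMB5 (63.6 ± 2.77), and PSMB6 (55.6 ± 2.02), PSMB7 (52.6 ± 1.07) and PSME2 (49.1 ± 3.79) followed closely. PSME3 (30.7 ± 0.72), PSMB10 (24.6 ± 1.51), PSMB8 (20.0 ± 0.27) and PSMB9 (11.8 ± 0.99) were lowest there, in that order. Relative to PSME3, PSME1 stood at a ratio of 1.51 ± 0.11 in attached controls and at 3.85 ± 0.08 with GFI1, and PSME2 at 0.640 ± 0.023 and 1.42 ± 0.02. The orders given for the 9 genes hold for the exonic length only. PSME3 has 5152 exonic bases in the deposited table and 762 coding bases, and PSMB5 has 1765 and 789. Among the PA28 genes the order, unlike their changes, turned with the length used. With coding length PSME1 stood at 0.534 of PSME3 in attached controls and at 1.36 with GFI1, and PSME2 at 0.473 and 1.05. With the length of the canonical mRNA, PSME2 stood at 1.79 of PSME3 in attached controls and at 3.97 with GFI1.

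Most other proteasome genes were lower with GFI1 too. Of the 30 remaining subunits of the standard 26S particle, 21 were called lower and 2 higher with GFI1 in attached cells (median log2 fold change −0.22, against −0.007 over all tested genes), and 21 lower and 0 higher in floating cells (median −0.27). Of all tested genes, 32.8% were called lower and 29.5% higher in attached cells, and 31.1% lower and 29.3% higher in floating cells. Scaled by library size only, 12 were lower and 4 higher in attached cells (median −0.07), and 17 lower and 3 higher in floating cells (median −0.14). Under that scaling, used again for the lists below, 7001 of the 17829 tested genes were called higher and 4375 lower in attached cells. In floating cells 6840 were called higher and 4308 lower. All 9 lid subunits of the regulatory particle fell in attached cells (median −0.29), or 6 with library size only (median −0.15), and 6 fell in floating cells. PSMD6 was at −0.56 ± 0.05 in attached cells (adjusted p = 8.12e-11), or −0.41 with library size only. Of 10 base subunits 8 fell in attached cells, or 4 with library size only, with PSMD2, a scaffold subunit, at −0.41 ± 0.04 (adjusted p = 5.91e-09), or −0.26 with library size only. The 4 structural beta subunits and 7 alpha ring subunits, which line the same core as the catalytic subunits, were mixed in attached cells. Of the former 2 fell, with PSMB3 at −0.29 ± 0.04 (adjusted p = 3.54e-06), and of the latter 2 fell and 2 rose, with PSMA7 at −0.55 ± 0.05 (adjusted p = 6.44e-11) and PSMA3 at 0.16 ± 0.05 (adjusted p = 0.00721). The shares of alpha ring subunits called were thus near those of all tested genes. The medians of these 2 lists, −0.13 and −0.07, turned to 0.017 and 0.081 when libraries were scaled by size only, where PSMB3 was at −0.14 and PSMA3 at 0.31, both still called.

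Among the 9 assembly chaperones, 6 fell and 1 rose with GFI1 in attached cells (median −0.20), where 32.8% of all tested genes fell and 29.5% rose. Scaled by library size only, 3 fell and 2 rose (median −0.05), and in DESeq2 6 fell and 0 rose. PSMG1, which helps to build the alpha ring, fell by 0.84 ± 0.07 on the log2 scale (adjusted p = 2.65e-11), and PAAF1, a chaperone of the regulatory particle, rose by 0.20 ± 0.07 (adjusted p = 0.0163), a call that was lost in DESeq2 (adjusted p = 0.0566). POMP, the maturation factor that both kinds of core need, fell by 0.15 ± 0.05 (adjusted p = 0.00928) when attached and by 0.28 ± 0.05 (adjusted p = 2.64e-05) when floating. In attached cells that call was lost with upper quartile scaling (−0.10, adjusted p = 0.0775) and with library size only (−0.003, adjusted p = 0.966), and in floating cells it was kept with library size only (−0.15, adjusted p = 0.0108). Of the other core regulators in attached cells, PSMF1, a proteasome inhibitor, fell by 0.32 ± 0.04 (adjusted p = 1.01e-07, or −0.18 with library size only) and PSME4, the nuclear activator PA200, was not called. With library size only PSME4 was called higher there. The tissue-restricted subunits PSMB11 of the thymus and PSMA8 of the testis had at most 1 and 3 counts in a library and were not tested.

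**Figure D4:**
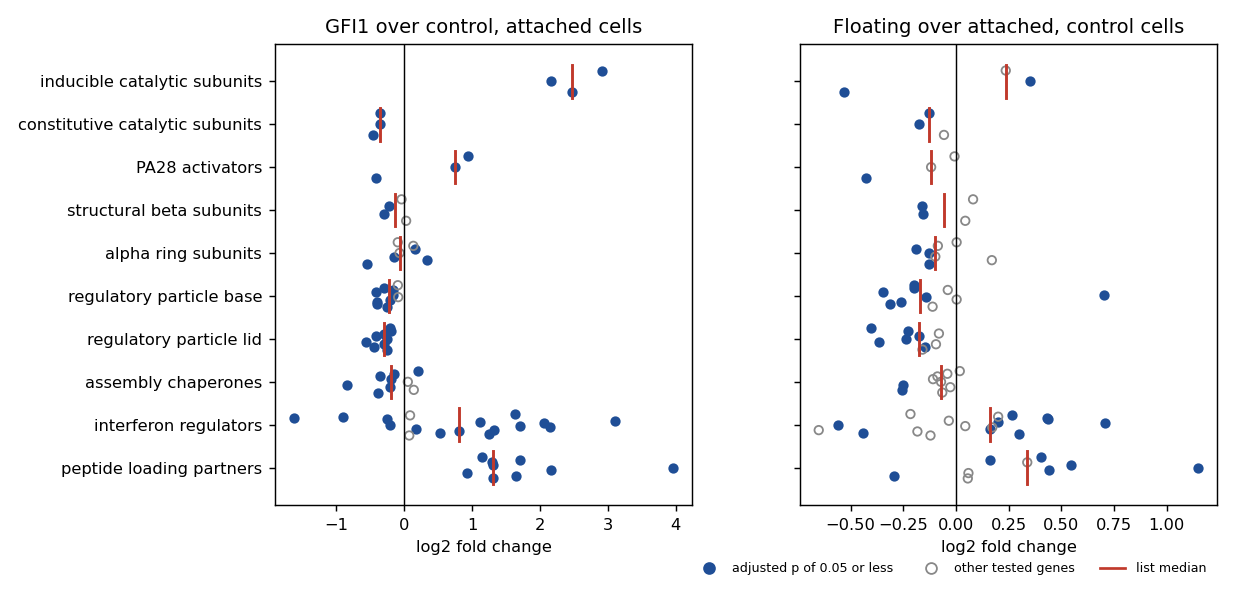
Log2 fold changes of every tested gene of the proteasome, interferon and peptide loading lists with GFI1 in attached cells (left) and on suspension in control cells (right, narrower axis). Filled points have an adjusted p of 0.05 or less, and the red bar is the list median, which is 2.47 for the inducible subunits, 1.31 for the peptide loading partners and −0.36 for the standard catalytic subunits on the left.

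The genes that work downstream of the proteasome in MHC class I presentation went with the inducible subunits. All 9 peptide loading partners were higher with GFI1 in attached cells (median log2 fold change 1.31) and in floating cells (median 1.33). Of all tested genes, 29.5% were called higher in attached and 29.3% in floating cells. HLA-B, a class I heavy chain, was at 4.17, 3.69 and 4.48 CPM in attached control and at 66.8, 60.4 and 66.1 CPM in attached GFI1 libraries (log2 fold change 3.97 ± 0.09, adjusted p = 4.89e-22), although reads of the HLA class I genes can be shared between them. TAP1, the neighbour of PSMB9, was at 40.9, 39.8 and 40.2 CPM in attached control and at 78.4, 76.9 and 74.3 CPM in attached GFI1 libraries. Its log2 fold change of 0.93 ± 0.05 (adjusted p = 3.7e-14) stood beside 2.47 for PSMB9 on the other side of the shared start region. On suspension in control cells, 5 of the 9 partners rose and 1 fell, where 19.6% of all tested genes rose and 20.5% fell. The partner that fell was TAP2, the other chain of the transporter, at −0.30 ± 0.08 (adjusted p = 0.00466). Of the 6 cytosolic peptidases that trim peptides after the proteasome, 3 fell and 1 rose with GFI1 in attached cells, against 32.8% and 29.5% of all tested genes, and with library size only 3 fell and 2 rose. THOP1, which destroys peptides, fell by 0.85 ± 0.05 on the log2 scale (adjusted p = 6.7e-14), and LAP3, an aminopeptidase, rose by 0.40 ± 0.06 (adjusted p = 1.63e-06).

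Of 17 tested interferon regulators, 11 rose and 4 fell with GFI1 in attached cells, and in floating cells 12 rose and 3 fell. Of all tested genes, 29.5% rose and 32.8% fell in the former and 29.3% rose and 31.1% fell in the latter. Scaled by library size only, 13 rose and 2 fell in attached cells, where 7001 of the 17829 tested genes rose and 4375 fell. IRF1, a transcription factor that binds the interferon-stimulated response element, was at 24.1, 23.2 and 23.5 CPM in attached control and at 206, 209 and 194 CPM in attached GFI1 libraries (log2 fold change 3.11 ± 0.05, adjusted p = 1.21e-24). NLRC5, the transactivator of class I genes, was at 11.9, 14.3 and 13.3 CPM and at 58.3, 58.2 and 60.3 CPM in the same groups (log2 fold change 2.16 ± 0.07, adjusted p = 3.21e-19). The fold change of IRF1 was thus above those of the inducible subunits, and that of NLRC5 was close to that of PSMB8. IFNGR1, the ligand-binding chain of the interferon-gamma receptor, moved against the list and fell by 1.63 ± 0.06 with GFI1 (adjusted p = 7.53e-18). It rose by 0.43 ± 0.05 on suspension in control cells (adjusted p = 2.62e-07), where JAK1, the kinase bound to these receptors, fell by 0.56 ± 0.05 (adjusted p = 3.24e-10).

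Interferon mRNA itself was scarce. IFNG and IFNA2 had 0 counts in all 12 libraries, which allows up to 3 counts over all 12 by counting error alone, and IFNB1, IFNL1, IFNL2, IFNL3 and IFNK, and the cytokine TNF, had at most 4 counts in any library. Only IFNA1 (5 to 19 counts) and IFNE (68 to 135 counts), an epithelial type I interferon, could be tested, and neither was called with GFI1 in attached cells. There IFNE was called higher with upper quartile scaling (0.39, adjusted p = 0.0472) and library size only (0.49, adjusted p = 0.0147). In control cells IFNE rose on suspension by 0.65 ± 0.17 (adjusted p = 0.00234) and IFNA1 by 1.26 ± 0.38 (adjusted p = 0.0094). With GFI1 in floating cells IFNA1 fell by 1.16 ± 0.37 (adjusted p = 0.00863). In DESeq2 both IFNA1 calls were lost (adjusted p = 0.059 and 0.0651).

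In the NRF1 pathway, which restores standard proteasome genes when activity is low, 2 of 6 genes rose and 2 fell with GFI1 in attached cells, a share near that of all tested genes (29.5% and 32.8%), and 3 rose and 1 fell with library size only. NFE2L1, which encodes NRF1, was not called there (0.09, adjusted p = 0.0849), but was with upper quartile scaling (0.14, adjusted p = 0.00719) and library size only (0.23, adjusted p = 5.02e-05), and rose by 0.14 ± 0.04 in floating cells (adjusted p = 0.00628). DDI2, the protease that activates NRF1, fell by 0.79 ± 0.07 in attached cells (adjusted p = 1.02e-10), and NFE2L2, a related factor of the oxidative stress response, rose by 0.62 ± 0.05 (adjusted p = 7.71e-12).

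On suspension in control cells, 17 of the 30 remaining 26S subunits fell and 1 rose (median −0.14), where 20.5% of all tested genes fell and 19.6% rose. The 1 that rose was PSMC4, an ATPase of the base, by 0.70 ± 0.05 on the log2 scale (adjusted p = 2.87e-11), while PSMC3 of the same ring fell by 0.35 ± 0.05 (adjusted p = 5.86e-07) and PSMD11 of the lid by 0.40 ± 0.05 (adjusted p = 4e-07). PSMC4 also rose on suspension in GFI1 cells, by 0.20 ± 0.05 (adjusted p = 0.00331). Smaller falls in control cells were those of PSMA3 (0.19 ± 0.05, adjusted p = 0.00386) and PSMB3 (0.16 ± 0.05, adjusted p = 0.00653) of the core and of the chaperone PSMG1 (0.25 ± 0.06, adjusted p = 0.00243). Around the proteasome, VCP, which unfolds its substrates, fell by 0.22 ± 0.05 (adjusted p = 0.000329) and THOP1 by 0.53 ± 0.05 (adjusted p = 2.22e-09), while NFE2L2 rose by 0.27 ± 0.05 (adjusted p = 3.6e-05) and the aminopeptidase NPEPPS by 0.17 ± 0.05 (adjusted p = 0.00467). In GFI1 cells 18 of the 30 fell and 1 rose (median −0.15), where 16.3% of all tested genes fell and 15.0% rose. PSMB5 and PSMB6 fell in control cells by amounts near the median of these 30 genes, and PSME3 by more.

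Genes with the most similar pattern to each GFI1-induced member were sought among 11877 protein-coding genes, as the root mean square difference of centred log2 CPM over the 12 libraries. PSMB8 was most like DTX3L and IFI35 (0.11 each) and NLRC5 (0.113), of which DTX3L is a ubiquitin ligase and IFI35 an interferon-induced protein. PSMB10 was most like SAMD9 (0.157), RASSF10 (0.176) and SRCIN1 (0.189). The closest genes to PSMB9 were farther off, at 0.268 for ALX4, 0.279 for DDX60 and 0.295 for SFRP1. PSMB9 had only 73 to 158 counts in control libraries, and the part of their spread in these distances was not tested. PSME1 lay close to NCOA2 (0.0465), TAP1 (0.0495) and CCDC106 (0.0637), and PSME2 to ST3GAL2 (0.0517), FAM111A (0.0552) and DKK1 (0.0626). These distances describe likeness over 12 libraries whose largest difference is GFI1, with the members left out as candidates. On suspension in control cells, where PSMB9 fell, its neighbour TAP1 was at 0.06 (adjusted p = 0.429).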

How the data were processed

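Poly-A mRNA of 12 libraries was sequenced on an Illumina NovaSeq system. The deposited values are raw counts per gene, which the authors made with Hisat2 and featureCounts on GRCh38 according to their methods. The submitters' processing notes instead list Bowtie2 and HTSeq, with hg38, and name no role for them. The annotation release and the strand setting were not given in the sources used here.

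Groups and replicate numbers came from the sample labels. Fits used edgeR 4.0.16 under R 4.3.3. The filter was filterByExpr (minimum count 10, minimum total 15), which left 17829 genes, all 9 described among them, and libraries were scaled by TMM (factors 0.939 to 0.971 in control, 1.04 to 1.06 in GFI1 libraries). All 12 libraries entered 1 quasi-likelihood fit of 4 group means, with a biological coefficient of variation of 4.86%. The 5 contrasts were tested two-sided, with Benjamini-Hochberg adjustment over all tested genes within each contrast, and a gene was called at an adjusted p of 0.05 or less. The SE is the log2 fold change over the root of its F statistic. CPM is scaled by TMM, and levels between genes were compared per kilobase of the exonic length in the deposited table. Chi-square values per gene between libraries of a group were 1.93 to 10.5, where counting noise alone gives about 1. Same-numbered libraries did not deviate together (correlations of −0.03 to 0.03 over 18 pairs), so replicate numbers were not used as a block. The fit was tested on simulated data in which few genes changed, evenly up and down, so that test does not bear on the choice of scaling.

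Positions and exon overlaps were taken from GENCODE v44, and start-site windows from RefSeq. The named genes are the 9 members, from each list the gene that rose and the gene that fell at the smallest adjusted p for the GFI1 effect in attached cells and the suspension effect in control cells, fixed partners, and the 3 closest pattern neighbours of each member that GFI1 raised. IFNG, IFNA2 and the other interferon genes at low counts, PSME4 and the marker genes given singly were named after their values were seen. A few genes that this rule takes are not reported here. The members and lists were chosen with earlier results of these data known. As alternatives, each library was left out in turn, DESeq2 1.42.0 replaced edgeR, TMM gave way to RLE, upper quartile or library size scaling, the filter was dropped or set to 10 counts in all libraries, a replicate block was added, the 2 groups of a contrast were fitted alone, a fold change of at least 2 was asked for, and coding length replaced exonic length.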

Additional observations from a re-analysis of the deposited data

Results flagged for a closer look

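PSMB8, the inducible chymotrypsin-like subunit, met the rule for effects that differ between conditions. Its GFI1 effect in floating cells was smaller than that in attached cells by 0.40 on the log2 scale (interaction −0.40 ± 0.10, edgeR quasi-likelihood test, Benjamini-Hochberg adjusted p = 0.00624), and over 19 other settings the adjusted p ran from 0.00413 to 0.0372. It was not called where a fold change of at least 2 was asked for as well. For this interaction 4.76% of all tested genes were called higher and 6.01% lower, so 1 call among the 9 genes is near the share called in either direction. The suspension effect of PSMB8 behind this difference was 0.35 ± 0.08 in control cells and −0.05 ± 0.06 in GFI1 cells. GFI1 itself was higher in floating than in attached GFI1 cells (log2 fold change 0.95 ± 0.10), and its part in this difference was not tested.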

How the results depend on the processing

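Of 675 values of the 9 genes under the alternatives, 632 kept their direction and their side of the threshold, 21 lost their call, 2 gained one and 20 changed sign. All 18 GFI1 effects kept direction and call under every scaling, filter, tool and left-out library. Sign changes were confined to 4 effects that were not called: that of suspension on PSME1 in control cells (0.013 with upper quartile scaling, 0.014 with library size only, 0.006 with at least 10 counts in every library, and −0.044 to 0.022 with 1 library left out), that of suspension on PSMB10 in GFI1 cells (−0.065 to 0.015 with 1 library left out), and the interactions of PSMB6 (0.016 without a low-count filter, −0.050 to 0.073 with 1 library left out) and PSME2 (0.004 and −0.062 to 0.030). A fold change of at least 2 left 3 genes higher and 0 lower with GFI1 in attached and floating cells, and 0 genes on suspension in either cell type and for the interaction. With 1 library left out, 1 to 2 genes were higher and 2 to 4 lower on suspension in control cells, and 2 to 6 were lower in GFI1 cells. PSME2 was called lower on suspension in control cells when only the 2 groups compared were fitted (−0.11, adjusted p = 0.0252). A replicate block changed no call of the 9 genes (PSMB8 interaction −0.40, adjusted p = 0.00667), and the replicate numbers gave no sign of pairing.

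Coding length moved the ratios per length in the order attached control, attached GFI1, floating control and floating GFI1 to 0.0795, 0.458, 0.111 and 0.510 for PSMB8 to PSMB5, to 0.0769, 0.549, 0.0606 and 0.489 for PSMB9 to PSMB6, to 0.534, 1.36, 0.714 and 1.59 for PSME1 to PSME3, and to 0.473, 1.05, 0.585 and 1.18 for PSME2 to PSME3. For PSMB10 to PSMB7 the GFI1 groups moved to 0.449 and 0.493. By construction the same factor applied to every group. In controls PSME1 went from above to below PSME3. Depth limited PSMB9 and PSMB10 in controls, where a library held 73 to 158 counts.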
